A study of Mus musculus with 72 samples.

Results

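Ets2, Erg, Runx1 and Sim2 are transcription factor genes in the segment of mouse chromosome 16 that is carried in 3 copies by the Ts1Cje mouse, a model of Down syndrome. The array annotation gave 13 of 45101 probe sets to these genes alone: 3 to Ets2, 2 to Erg, 6 to Runx1 and 2 to Sim2. They are 4 of the 18194 genes with a probe set of their own and 4 of the 77 measured genes that lie between Sod1 and Zbtb21, the ends of the triplicated segment. All 13 probe sets were taken, whatever their level.

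Total RNA of the cerebral cortex, cerebellum and hippocampus was measured at postnatal days 1, 15, 30 and 84 (P1, P15, P30 and P84). At each age and in each region 3 Ts1Cje mice, which carry the extra segment as a partial trisomy, were set against 3 disomic littermates, giving 24 groups and 72 arrays. The mice came from Ts1Cje males mated with C57BL/6 females, were labelled female, received no treatment, and were genotyped by PCR for the neomycin cassette at the Sod1 end of the segment. The labels call the 3 arrays of a group biological replicates, and the 3 regions were dissected from the same mice.

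Ets2 and Erg belong to the ETS family, whose members bind DNA at sites with a GGAA core. Ets2 is a target of Ras and MAP kinase signalling and is expressed in many cell types, while Erg is best known as a factor of endothelial cells. Runx1 binds DNA together with its partner Cbfb and is required for the first blood stem cells. In the brain it is known from microglia. Sim2 is a bHLH-PAS factor that dimerises with Arnt and is related to Drosophila single-minded, a regulator of the embryonic midline. Whole tissue was measured, so fewer cells of a type and less RNA per cell cannot be told apart.

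Along the chromosome the order is Runx1, Sim2, Erg, Ets2. In the annotation Runx1 stands between Clic6 and 1810053B23Rik, Sim2 between Cldn14 and Hlcs, Erg between Kcnj15 and Ets2, and Ets2 between Erg and Psmg1. The RefSeq promoter table (build GRCm38.p6) held 6 promoters for Ets2, Erg and Runx1, each with 250 bases before and 50 after a transcription start. Ets2 and its neighbour Erg gave different results below, so the promoter of Ets2 (chr16:95702157-95702456, plus strand) and the most upstream promoter of Erg (chr16:95586544-95586843, minus strand) are shown, each 5′ to 3′ with CG dinucleotides in capitals.
Ets2: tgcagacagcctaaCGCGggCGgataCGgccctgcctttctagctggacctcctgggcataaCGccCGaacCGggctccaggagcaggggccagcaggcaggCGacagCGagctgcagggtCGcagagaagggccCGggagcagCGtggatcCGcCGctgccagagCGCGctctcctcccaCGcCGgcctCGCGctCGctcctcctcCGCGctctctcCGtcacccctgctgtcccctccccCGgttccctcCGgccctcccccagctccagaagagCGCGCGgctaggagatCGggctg
Erg: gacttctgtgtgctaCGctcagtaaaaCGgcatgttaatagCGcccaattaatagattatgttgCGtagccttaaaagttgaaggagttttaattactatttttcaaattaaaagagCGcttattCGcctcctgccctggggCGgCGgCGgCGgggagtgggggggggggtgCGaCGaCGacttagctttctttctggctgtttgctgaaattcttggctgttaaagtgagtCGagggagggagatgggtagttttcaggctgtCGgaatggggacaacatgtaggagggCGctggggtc
The Ets2 promoter held 30 CG dinucleotides and 71.7% G or C. The Erg promoter held 16 CG dinucleotides and 50.3% G or C. The median over 32851 promoters of 300 bases was 7 CG dinucleotides and 52.7% G or C. The other Erg promoters held 4 and 2 CG dinucleotides, and the Runx1 promoters held 35 and 2. The ETS core, searched as GGAA on both strands, is in 96.0% of all promoters of this length. Whether promoter sequence bears on the results of these genes was not tested.

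The deposited values are log2 expression values, and all levels below are on that scale. The median probe set of an array lay between 3.20 and 3.37, which serves as a mark of the level at which a probe set of this array is dim. Levels of different probe sets are not on one scale, because probe sets differ in how well they hybridise, so brighter or dimmer refers to signal and not to amounts of RNA. Some arrays stood apart. The upper quartile was between 5.65 and 5.93 on 69 arrays, but lay at 4.97, 5.23 and 5.51 on disomic replicate 3 of the P1 cerebellum, the P84 cerebral cortex and the P84 hippocampus, called dim arrays here. For disomic replicate 3 at P15, the array labelled cerebellum had cerebellar markers 3.34 below forebrain markers, where the other 23 cerebellar arrays had them 2.02 to 9.68 above, and the array labelled hippocampus had them 9.13 above, where the other 47 forebrain arrays had a difference of -4.41 to -1.15. All mice were labelled female, but Xist was at 5.57 to 8.12 on the 3 arrays of Ts1Cje replicate 3 at P1 and at 1.96 to 2.76 on the other 69, while Eif2s3y, a Y-linked gene, was at 2.16 to 2.90 on those 3 arrays and at 7.20 to 9.68 on the other 69. Leaving out the 3 arrays high in Xist, chosen after seeing the data, ended no call of Ets2. Values without the dim arrays or the arrays with markers of another region stand beside the Ets2 results that they move.

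Ets2 was the only one of the 4 genes with a clear signal. Its main probe set 1416268_at averaged 8.57 over 72 arrays (SD 0.96, 4.98 to 10.26) and was above the array median on all 72. A second Ets2 probe set, 1447685_x_at, averaged 3.97 (SD 0.59, 2.74 to 5.56) and was above the median on 63 arrays. The remaining 1437809_x_at averaged 1.86 (1.60 to 2.19) and was above it on none.

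Erg, Runx1 and Sim2 were near or below the array median in all regions. Erg 1440244_at averaged 3.55 (SD 0.25, 2.97 to 4.30) and was above the median on 66 arrays, and Erg 1425370_a_at averaged 2.27 and was above it on none. Runx1 was highest on 1452530_a_at, with a mean of 3.06 (2.76 to 3.74), above the median on 7 arrays, and its other 5 probe sets averaged 1.92 to 2.46. Sim2 1419438_at averaged 2.44 (2.09 to 3.40), above the median on 2 arrays, and 1419437_at averaged 1.71. Of the 13 probe sets 9 had no group mean above the median array. In 8 of the 13, all of Erg, Runx1 or Sim2, the highest value of all 72 arrays was on a dim array, while both brighter Ets2 probe sets had their lowest value on a dim array, disomic replicate 3 of the P1 cerebellum.

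**Figure D1:**
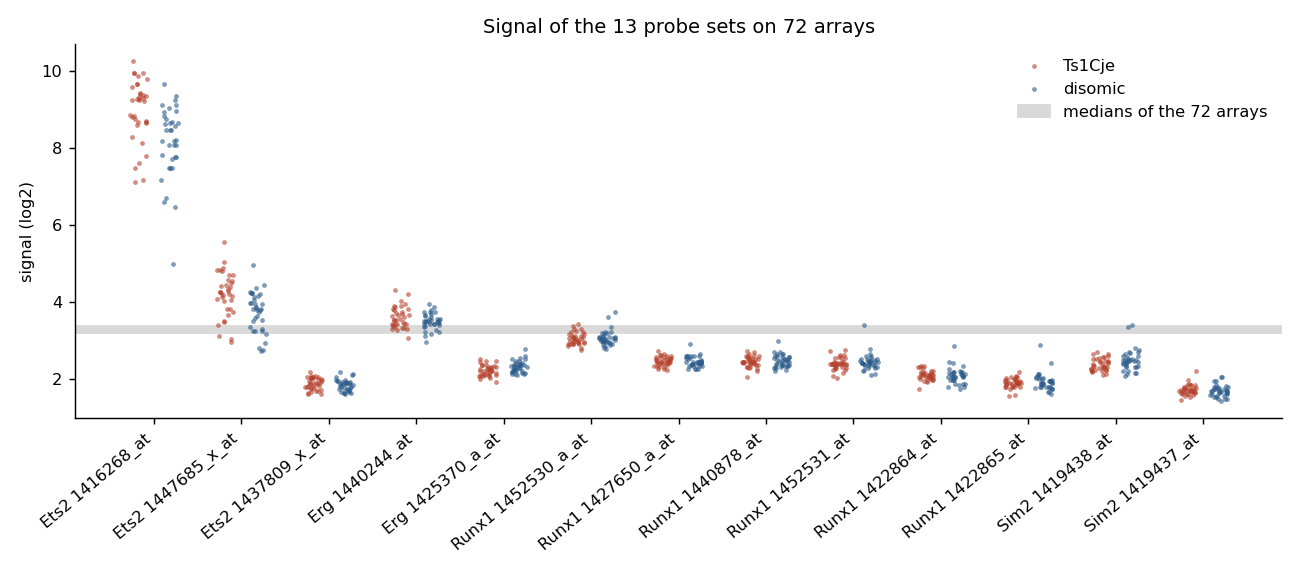
Log2 expression of the 13 probe sets of Ets2, Erg, Runx1 and Sim2 on 72 arrays, 1 point per array, Ts1Cje in red and disomic in blue, with the grey band marking the array medians of 3.20 to 3.37. Only Ets2 1416268_at lies wholly above the band, and 9 probe sets have no group mean above the median array.

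Ets2 was higher in Ts1Cje than in disomic brain in every region. Averaged over the 4 ages, the log2 difference of 1416268_at was 0.85 ± 0.128 (SE; 1.8-fold; 95% confidence interval 0.59 to 1.10) in cerebral cortex, 0.93 ± 0.128 (1.91-fold, 0.68 to 1.19) in cerebellum and 0.67 ± 0.128 (1.59-fold, 0.41 to 0.93) in hippocampus, with 12 arrays against 12. The limma adjusted p was 3.28e-05, 4.01e-06 and 0.00263 in that order. A probe set was called where its moderated t was at least 4 or at most -4 and its adjusted p over 45101 probe sets was at most 0.05, and by this rule Ets2 was called in all 3 regions. For comparison, 0.191% of all probe sets were called higher in cerebral cortex, 0.217% in cerebellum and 0.184% in hippocampus. A ratio of 3 copies to 2 is 0.58 on the log2 scale, which lay below the confidence interval in cerebral cortex and cerebellum and within it in hippocampus. Without the 3 dim arrays and both arrays with markers of another region, the difference was 0.81 (95% confidence interval 0.65 to 0.97) in cerebral cortex. It was 0.69 (0.53 to 0.85) in cerebellum and 0.66 (0.50 to 0.82) in hippocampus, so that the cerebellar interval then held 0.58. With disomic replicate 3 left out in all groups, the cortical difference was 0.74 (0.58 to 0.91), with its lower bound at 0.58. The hippocampal call did not hold when 1 Ts1Cje replicate number was left out at all ages, with an adjusted p of 0.0798, 0.178 and 0.0556 for replicates 1, 2 and 3.

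In the cerebral cortex no disomic array reached the level of any Ts1Cje array of its age. At P1 the Ets2 level was 8.68, 8.67 and 8.28 in Ts1Cje and 7.83, 7.48 and 7.47 in disomic mice. At P15 it was 8.71, 8.75 and 8.60 in Ts1Cje and 8.17, 7.72 and 7.76 in disomic mice. The gap at these ages was 0.95 and 0.80 on the log2 scale, or 1.93-fold and 1.74-fold. At P30 the level was 9.21, 9.28 and 9.26 in Ts1Cje and 8.48, 8.47 and 8.07 in disomic mice. At P84 it was 8.87, 9.29 and 9.25 in Ts1Cje and 8.47, 8.64 and 8.09 in disomic mice. The differences were 0.91 and 0.74 at these ages, and the lowest disomic array at P84, replicate 3, was a dim one, without which the P84 difference was 0.58.

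The cerebellum held both the lowest and the highest Ets2 levels. At P1 the level was 7.47, 7.18 and 7.11 in Ts1Cje and 6.60, 6.46 and 4.98 in disomic mice. The last of these values was on a dim array. At P15 it was 9.66, 9.59 and 9.66 in Ts1Cje and 9.25, 8.93 and 7.76 in disomic mice, the last of them on the array with forebrain markers. At P30 it was 10.26, 9.96 and 9.95 in Ts1Cje and 9.66, 9.11 and 9.35 in disomic mice. At P84 it was 9.94, 9.87 and 9.78 in Ts1Cje and 9.13, 8.97 and 9.05 in disomic mice. The groups did not overlap at any age, and the differences were 1.24, 0.99, 0.69 and 0.81 from P1 to P84. Without the dim array the P1 difference was 0.72, and without the array with forebrain markers the P15 difference was 0.55.

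In the hippocampus the groups were apart at 3 of the 4 ages. The Ets2 level at P1 was 7.80, 8.13 and 7.61 in Ts1Cje and 6.71, 7.16 and 7.49 in disomic mice. At P15 it was 8.84, 8.80 and 8.64 in Ts1Cje and 8.17, 8.20 and 8.75 in disomic mice. Here the groups overlapped through the disomic array of 8.75, the one with cerebellar markers. At P30 the level was 9.33, 9.24 and 9.39 in Ts1Cje and 8.62, 8.68 and 8.58 in disomic mice. At P84 it was 9.37, 9.44 and 9.35 in Ts1Cje and 8.64, 8.84 and 8.07 in disomic mice, the last of them on a dim array. The differences were 0.73, 0.39, 0.70 and 0.87, the P15 value being the smallest of the 12 comparisons (95% confidence interval -0.13 to 0.90), and without disomic replicate 3 the P15 difference was 0.57 and the P84 difference 0.64.

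**Figure D2:**
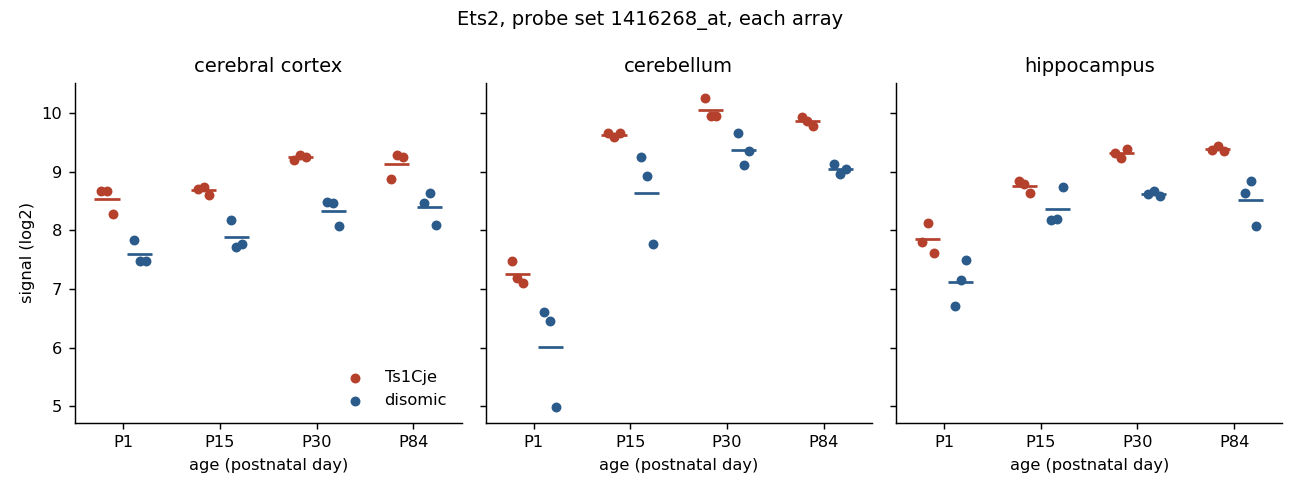
Log2 expression of Ets2 (1416268_at) on each array by region and postnatal age, Ts1Cje in red on the left of each pair and disomic in blue on the right, with lines at the means of 3 mice. All 3 Ts1Cje arrays lie above all 3 disomic arrays in 11 of 12 comparisons, the exception being the P15 hippocampus.

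All 3 Ts1Cje arrays were above all 3 disomic arrays in 11 of 12 comparisons for Ets2 1416268_at, which 28 probe sets (0.0621%) reached or passed. Single comparisons of 3 against 3 arrays were less decisive in the test over all probe sets. Of the 12, only the P1 cerebellum was called, at 1.24 ± 0.256 (SE; 2.37-fold; adjusted p = 0.00883), and 11 had an unadjusted p below 0.05 in limma. That call did not hold without the dim arrays, when the difference was 0.72 with an adjusted p of 0.414, and it held at the same 0.72 with disomic replicate 3 left out in all groups (adjusted p = 0.0495). In the P1 cerebellum 0.406% of all probe sets were called higher, and without the dim arrays 0.0488%. The share called higher at P15, P30 and P84 in cerebellum was 0.0310%, 0.0266% and 0.0976%. In the cerebral cortex it was 0.00665%, 0.00222%, 0.0111% and 0.0443% from P1 to P84, and in hippocampus 0.0133%, 0.0510%, 0.0155% and 0.0665%. With the 3 dim arrays and both arrays with markers of another region left out, 7 of the 12 comparisons of Ets2 1416268_at were called. Among them was the P30 difference in every region (0.91 in cerebral cortex, 0.69 in cerebellum and 0.70 in hippocampus). No P30 array was left out, so these differences were the same size as with all arrays, where they were not called. The spread in the fit was smaller, the SE of the cortical average over ages falling from 0.128 to 0.077. The share of all probe sets called in this fit is not given here.

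The second Ets2 probe set, 1447685_x_at, moved the same way at a lower level. Its difference was positive in 12 of 12 comparisons (0.18 to 0.96), and the groups were fully apart, Ts1Cje above, in 5 of 12, as in 179 probe sets (0.397%) in at least 5. At P84 in cerebellum it stood at 4.83, 4.80 and 5.56 in Ts1Cje and 4.12, 4.06 and 4.15 in disomic mice, its widest gap. At P1 in cerebellum it stood at 2.96, 3.39 and 3.05 in Ts1Cje and 2.80, 2.75 and 2.74 in disomic mice, all in the dim range. Averaged over ages it was called in cerebellum alone, at 0.57 ± 0.12 (SE; 1.48-fold; limma adjusted p = 0.0111), a call that was lost without Ts1Cje replicate 2 (adjusted p = 0.223), Ts1Cje replicate 3 (0.199) or disomic replicate 1 (0.0886). The averages were 0.45 in cerebral cortex (adjusted p = 0.175) and 0.33 in hippocampus (adjusted p = 0.721). None of its 12 single comparisons was called, with 4 unadjusted p below 0.05. Over the 24 group means the probe sets 1416268_at and 1447685_x_at followed each other with a Pearson r of 0.958, while their deviations from the group means over 72 arrays had an r of 0.254. The dimmest Ets2 probe set, 1437809_x_at, differed by -0.14 to 0.25 and its groups were fully apart in 0 of 12 comparisons.

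The size of the Ets2 difference was not shown to depend on region or age. The difference in cerebellum was 0.09 larger than in cerebral cortex (95% confidence interval -0.28 to 0.45) and 0.26 larger than in hippocampus (-0.10 to 0.63), and that in hippocampus was 0.18 smaller than in cerebral cortex (a difference of -0.18, -0.54 to 0.19). The adjusted p was 1 for each. The F for a change with age was 0.14 in cerebral cortex, 0.88 in cerebellum and 0.63 in hippocampus (adjusted p of 1, 0.83 and 1). None of the 13 probe sets was called for a difference between regions or ages in the genotype difference. Over the whole table limma called 0% for each of the 3 region pairs, with an unadjusted p below 0.05 for 1330, 1419 and 1597 probe sets, and 0%, 0.0399% and 0.00222% for age in cerebral cortex, cerebellum and hippocampus.

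Erg, the neighbour of Ets2, was not called in any genotype comparison. In the P15 cerebral cortex Erg 1440244_at was 3.75, 4.30 and 4.20 in Ts1Cje and 3.73, 3.75 and 3.66 in disomic mice. In the P1 hippocampus it was 3.52, 3.67 and 3.83 in Ts1Cje and 3.39, 3.43 and 3.38 in disomic mice. In the P1 cerebellum it was 3.38, 3.36 and 3.42 in Ts1Cje and 3.48, 3.42 and 3.63 in disomic mice. These groups did not overlap, Ts1Cje being above in cortex and hippocampus and below in cerebellum. In cerebellum the nearest arrays of both groups read 3.42 after rounding. None of these differences was called (limma adjusted p of 0.662 or more). Over all probe sets and 12 comparisons, 4.90% were fully apart with Ts1Cje above and 4.50% with Ts1Cje below. Averaged over ages the Erg difference was 0.17 in cerebral cortex (95% confidence interval -0.00 to 0.34, adjusted p = 0.998), 0.01 in cerebellum (-0.16 to 0.18) and 0.15 in hippocampus (-0.02 to 0.33). All 3 upper bounds were below 0.58. The dimmer probe set 1425370_a_at averaged -0.09, -0.11 and -0.11 in the same regions, the opposite direction to that of 1440244_at, and was not called.

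Runx1 was not called for genotype on any probe set in the fit of all arrays. In the P1 cerebral cortex Runx1 1452530_a_at was 2.81, 2.92 and 2.76 in Ts1Cje and 2.90, 2.77 and 2.88 in disomic mice. In the P84 cerebral cortex it was 3.42, 3.08 and 2.99 in Ts1Cje and 3.04, 3.17 and 3.61 in disomic mice, the last value on a dim array. The groups overlapped in all 12 comparisons. Averaged over ages the difference was -0.01 in cerebral cortex (95% confidence interval -0.15 to 0.13), -0.03 in cerebellum (-0.17 to 0.11) and 0.00 in hippocampus (-0.14 to 0.14), all below 0.58. The other 5 Runx1 probe sets were below the median array throughout in group mean, and none was called. Without disomic replicate 2, which leaves a dim array among those of the P1 cerebellum, 1422865_at was called lower there (-0.65, adjusted p = 0.00945).

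Sim2 was not called either. In the P30 hippocampus Sim2 1419438_at was 2.39, 2.23 and 2.10 in Ts1Cje and 2.67, 2.49 and 2.57 in disomic mice. In the P15 hippocampus it was 2.21, 2.34 and 2.30 in Ts1Cje and 2.44, 2.71 and 2.61 in disomic mice. In the P84 cerebral cortex it was 2.28, 2.20 and 2.31 in Ts1Cje and 2.42, 2.32 and 3.36 in disomic mice. In these 3 comparisons every Ts1Cje array was below every disomic array, which over all probe sets and 12 comparisons was so in 4.50%. The disomic value of 3.36 was on a dim array, and that of 2.61 on the array with cerebellar markers. The averages were -0.15, -0.11 and -0.09 in cerebral cortex, cerebellum and hippocampus, with upper bounds of 0.04, 0.08 and 0.11. On 1419437_at the averages were 0.04, -0.04 and 0.08.

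Leaving aside the brighter pair of Ets2 probe sets, the other 11 gave 132 genotype differences of -0.44 to 0.37, of which 63 were positive, 7 had an unadjusted p below 0.05 and 0 were called by limma (smallest adjusted p = 0.151). Their 33 averages over ages ran from -0.15 to 0.17, with 12 positive and none with an unadjusted p below 0.05. Over all probe sets and the 12 comparisons, groups were fully apart with Ts1Cje above in 4.90% and below in 4.50%. A value near 0 on a probe set this dim does not show that the transcript levels were alike.

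**Figure D3:**
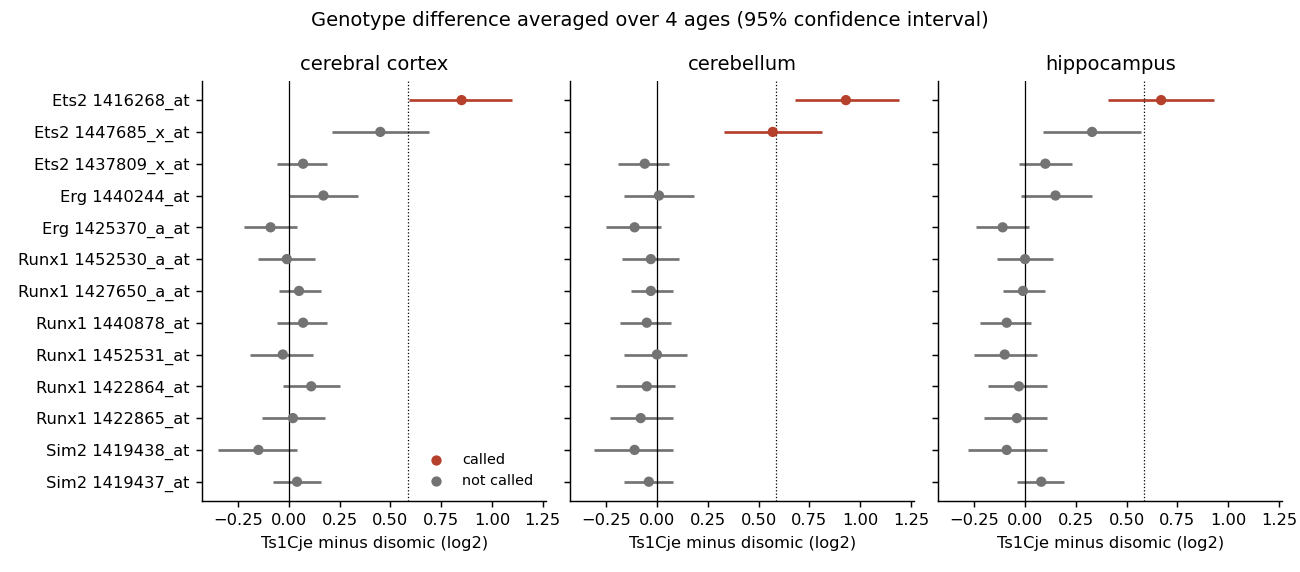
Log2 difference, Ts1Cje minus disomic, averaged over 4 ages, with 95% confidence intervals for the 13 probe sets in 3 regions, called values in red. The dotted line marks 0.58, the log2 of 3 copies over 2, which lies below the interval of Ets2 1416268_at in cerebral cortex and cerebellum and above all intervals of Erg, Runx1 and Sim2. Without the 5 arrays that stood apart the cerebellar interval of Ets2 was 0.53 to 0.85. Without disomic replicate 3 in all groups its cortical interval was 0.58 to 0.91.

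The same split by level ran through the triplicated segment. Of its 77 measured genes, 35 were called higher in cerebral cortex, 35 in cerebellum and 34 in hippocampus, and 0 lower, with median differences of 0.46, 0.48 and 0.50 against 0.02, -0.01 and 0.01 over all 18194 genes. Among the 38 genes with a mean of at least 5, 32, 30 and 30 were called, with medians of 0.70, 0.73 and 0.67. Among the 39 dimmer genes, which include Erg, Runx1 and Sim2, 3, 5 and 4 were called, with medians of 0.07, 0.04 and 0.03. Psmg1, the gene on the other side of Ets2 and a chaperone of proteasome assembly, differed by 0.81, 0.83 and 0.86 and was called in all regions (adjusted p of 1.71e-07 or less). Kcnj15, beyond Erg, differed by -0.09, -0.04 and -0.09 and was not called. Hlcs, beside Sim2, was called in cerebellum at 0.40 (adjusted p = 0.0312).

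Ets2 rose with postnatal age in all 3 regions, most in cerebellum. Over both genotypes its cerebellar level was 6.64 ± 0.895 at P1, 9.14 ± 0.735 at P15, 9.72 ± 0.428 at P30 and 9.46 ± 0.452 at P84 (SD, n = 6). The step from P1 to P15 was 2.51 ± 0.181 (SE; 5.68-fold; limma adjusted p = 3.85e-17). It was 2.47 without the 5 arrays that stood apart. The step from P15 to P30 was 0.57 (adjusted p = 0.0317), short of the t of 4, and from P30 to P84 the level changed by -0.26, not called. The second probe set gave a step of 1.19 ± 0.17 (SE; 2.28-fold; adjusted p = 5.77e-08) from P1 to P15.

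In the hippocampus the Ets2 level was 7.48 ± 0.499 at P1, 8.57 ± 0.303 at P15, 8.98 ± 0.387 at P30 and 8.95 ± 0.539 at P84. The step from P1 to P15 was called at 1.08 (2.12-fold, adjusted p = 2.06e-06), and the later steps of 0.41 and -0.02 were not. The cerebral cortex changed least, with 8.07 ± 0.555, 8.28 ± 0.47, 8.80 ± 0.518 and 8.77 ± 0.463 over the same ages, and none of its steps (0.22, 0.51 and -0.03) was called, although the F over the 4 ages was (7.93, adjusted p = 6.84e-04). Without the 5 arrays that stood apart, the step from P15 to P30 was called in cerebral cortex (0.51, adjusted p = 9.36e-04) and hippocampus (0.50, adjusted p = 0.00305). The F was 123.46 in cerebellum (adjusted p = 1.09e-21) and 29.93 in hippocampus (adjusted p = 3.04e-10), and 1447685_x_at was called in the same 3 tests. The F over ages was called for 43.0% of all probe sets in cerebral cortex, 46.2% in cerebellum and 37.6% in hippocampus, so a change with age was common. The step from P1 to P15 was called for 23.8%, 21.9% and 19.1% of probe sets in these regions, that from P15 to P30 for 1.67%, 4.53% and 1.75%, and that from P30 to P84 for 0.286%, 0.712% and 0.313%.

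The order of the regions in Ets2 level differed between P1 and the later ages. At P1 the cerebellum was lower than the cerebral cortex by 1.43 on the log2 scale (a difference of -1.43 ± 0.181, 0.37-fold, adjusted p = 5.55e-09) and lower than the hippocampus (-0.85, 0.555-fold, adjusted p = 2.75e-04). At P15 and P30 the cerebellum was higher than the cerebral cortex by 0.86 (1.81-fold, adjusted p = 1.73e-04) and 0.92 (1.89-fold, adjusted p = 4.56e-05), both called, and at P84 by 0.69 (adjusted p = 0.002), with a t of 3.82 that missed the rule. Without the dim arrays the P84 difference was 0.61 and called (adjusted p = 0.00111). Against the hippocampus the cerebellum was higher by 0.57, 0.74 and 0.51 at P15, P30 and P84, called at P30 alone (adjusted p = 9.49e-04). Without the arrays that carried the other region's markers the P15 difference was 0.89 and called (adjusted p = 5.50e-05). Hippocampus and cerebral cortex differed by -0.59, 0.28, 0.18 and 0.19 from P1 to P84, none called, although the P1 difference was called at the same size without the dim arrays (adjusted p = 0.00659). Without the dim arrays the P1 cerebellum was below the cerebral cortex by a difference of -1.18 and below the hippocampus by one of -0.59, the second no longer called (adjusted p = 0.00294).

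Averaged over ages and genotypes these opposite differences largely cancelled, and none of the 39 region tests of the 13 probe sets was called. Ets2 in cerebellum was 0.26 above the cerebral cortex (limma adjusted p = 0.0159, t of 2.85) and 0.24 above the hippocampus (adjusted p = 0.0251), and the hippocampus was 0.01 above the cerebral cortex. Without the 5 arrays that stood apart, the cerebellum was 0.36 above each of the other regions and both differences were called (adjusted p of 2.79e-07 against cerebral cortex and 4.15e-07 against hippocampus). Such averages were called for 29.0% of all probe sets between cerebellum and cerebral cortex, 9.39% between hippocampus and cerebral cortex and 26.8% between cerebellum and hippocampus. At single ages from P1 to P84 the shares were 13.3%, 14.3%, 17.2% and 16.9% for cerebellum against cerebral cortex, 2.22%, 3.43%, 4.04% and 4.22% for hippocampus against cerebral cortex, and 10.1%, 7.61%, 16.5% and 16.5% for cerebellum against hippocampus.

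Over the 24 group means the genes most like Ets2, among 7757 genes with a mean of at least 5, were Dop1b (Pearson r of 0.936), Pptc7 (0.911), Dym (0.893), Ypel3 (0.890) and Gga3 (0.889). Dop1b lies in the triplicated segment too, and the others lie on other chromosomes. The deviations of single arrays from their group means followed Ets2 less closely, with r of 0.37, 0.34, 0.52, 0.15 and 0.52 over 72 arrays. These points share arrays and their normalisation, and the values are a description.

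Erg and Runx1 each changed with age in cerebral cortex by a small amount. Erg 1440244_at averaged 3.48, 3.90, 3.76 and 3.47 from P1 to P84 over both genotypes (F of 6.07, limma adjusted p = 0.00393, n = 6 arrays an age). Its cerebellar means of 3.45, 3.65, 3.53 and 3.29 had the same order of P15 first and P84 last but were not called (adjusted p = 0.0659), and its hippocampal means of 3.54, 3.52, 3.57 and 3.45 were flat (adjusted p = 0.891). Runx1 1452530_a_at averaged 2.84, 3.06, 3.14 and 3.22 in cerebral cortex (F of 5.51, adjusted p = 0.00678), below the array median at every age, and was not called in the other regions. The Runx1 call did not hold without Ts1Cje replicate 1 at all ages (adjusted p = 0.101), and that of Erg held without any 1 replicate number. With the replicate number as a block neither was called (adjusted p of 0.115 for Erg and 0.0618 for Runx1). Sim2 1419438_at averaged 2.42, 2.25, 2.41 and 2.48 in cerebral cortex and was not called in any region. In all, 8 of 39 age tests of the 13 probe sets were called, 6 of them on Ets2. The same F was called for 43.0% of all probe sets in cerebral cortex, 46.2% in cerebellum and 37.6% in hippocampus. An age call on Erg or Runx1 in cerebral cortex therefore does not set them apart from other probe sets.

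**Figure D4:**
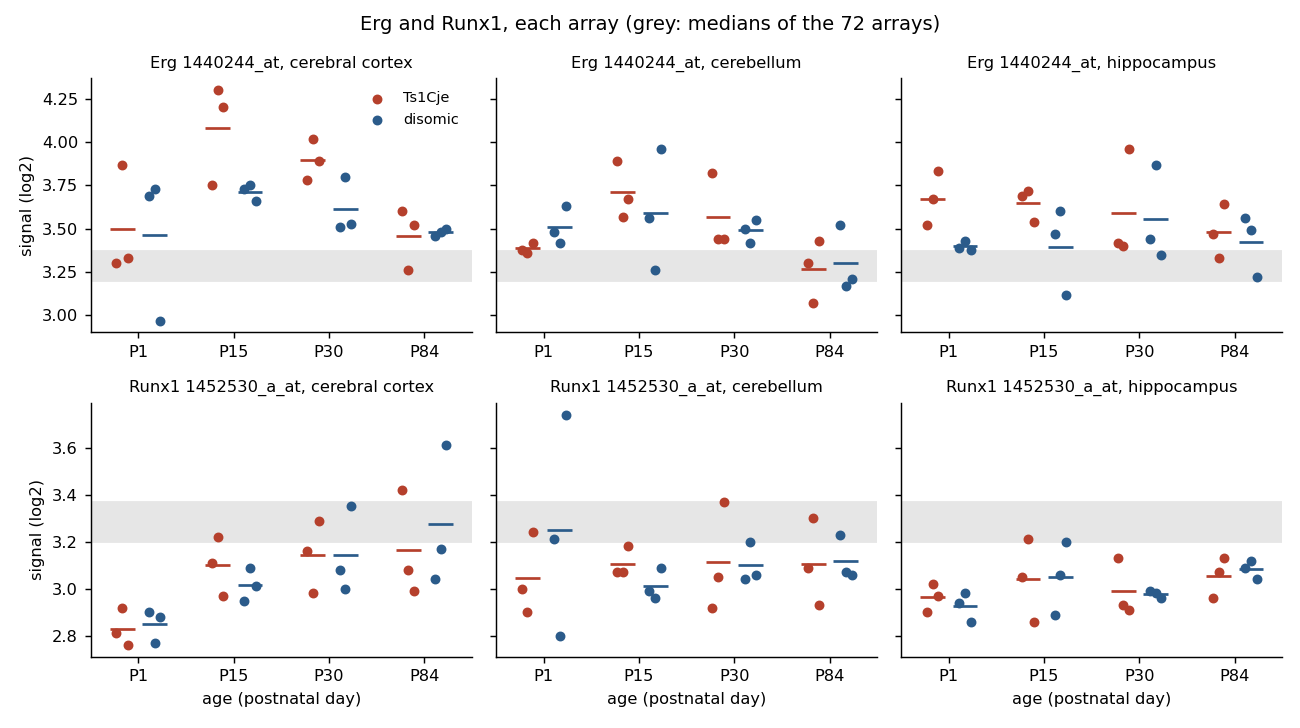
Log2 expression of Erg (1440244_at) and Runx1 (1452530_a_at) on each array by region and postnatal age, Ts1Cje in red on the left of each pair and disomic in blue on the right, with lines at the means of 3 mice and the grey band at the array medians. In the cerebral cortex the means over both genotypes run 3.48, 3.90, 3.76 and 3.47 for Erg and 2.84, 3.06, 3.14 and 3.22 for Runx1.

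Markers of the cells in which these factors are best known moved over the same ages. In the cerebral cortex the mean of 16 endothelial markers, Cdh5, Pecam1 and Cldn5 among them, was 3.26 to 4.14 in Ts1Cje and 3.37 to 4.31 in disomic mice at P1, and 4.67 to 4.79 in Ts1Cje and 4.86 to 4.94 in disomic mice at P15. The mean of 14 microglial markers, such as Cx3cr1 and Csf1r, was 3.60 to 4.36 in Ts1Cje and 3.60 to 4.08 in disomic mice at P1, and 5.85 to 6.08 in Ts1Cje and 6.07 to 6.08 in disomic mice at P15. Both lists were therefore higher at P15 than at P1 on every array of the cerebral cortex, and 4 endothelial and 3 microglial markers lay below the array median over all arrays. In the hippocampus, where neither Erg nor Runx1 was called for age, both lists also rose. Endothelial group means at P1 and P15 were 4.15 and 4.91 in Ts1Cje and 3.93 and 4.60 in disomic mice. In the same order, microglial means were 4.33 and 5.92, and 4.39 and 5.36. In the cerebellum the endothelial means were 3.67 and 4.52, and 4.05 and 4.51. The microglial means were 4.28 and 4.13, and 4.12 and 4.79. Both disomic P15 groups hold an array with markers of another region. The part of these cells in the age course of Erg and Runx1 was not tested. Markers of red blood cells (4 genes, 2.20 to 2.77 in Ts1Cje and 2.25 to 3.33 in disomic mice) and of leukocytes (6 genes, 2.22 to 2.80 in Ts1Cje and 2.26 to 2.84 in disomic mice) were each below the array median in their mean over all arrays.

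Genes related to the 4 factors were not called for genotype in the averages over ages. Of the other ETS factors 22 of 24 were measured, and their median difference averaged over ages was -0.01 in cerebral cortex, -0.01 in cerebellum and 0.03 in hippocampus. The 5 measured partners and relatives of Runx1, among them Cbfb, had medians of 0.05, 0.05 and -0.05, and the 15 other bHLH-PAS factors had medians of -0.01, -0.01 and 0.03. Over the ages, genes described as targets had medians of -0.02, -0.09 and 0.16 for 8 targets of Erg, 0.03, -0.06 and 0.01 for 5 targets of Runx1, and -0.01, -0.06 and -0.04 for Mmp3, Mmp9, Plau and Timp1, protease and inhibitor genes with ETS sites. At single ages the mean level of the Erg targets was 3.98 to 4.29 in Ts1Cje and 4.66 to 4.73 in disomic mice in P1 cerebellum, and 5.07 to 5.37 in Ts1Cje and 4.74 to 4.94 in disomic mice in P15 hippocampus, apart in opposite directions, with a dim array among the disomic ones of the first and an array with cerebellar markers among those of the second. By limma no gene of these lists was called in either direction in the average over ages in any region, and in each list at most 2 genes a region had an unadjusted p below 0.05.

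From P1 to P15 no ETS relative was called higher in any region, while Elf2 (-2.14) and Gabpa (-0.84) were called lower in cerebral cortex and Elk3 (-1.21) in cerebellum. Cbfb, the binding partner of Runx1, was called lower in all 3 regions (-2.16 in cerebral cortex, -1.27 in cerebellum and -2.17 in hippocampus), and Runx1t1 in cerebral cortex (-1.76) and the hippocampus (-1.87). Among the bHLH-PAS factors, 6 were called higher and 2 lower in cerebral cortex, 3 and 3 in cerebellum, and 3 and 1 in hippocampus. Epas1, a hypoxia-inducible factor of endothelium, was called higher by 3.30, 3.28 and 2.66 in these regions, and Clock, of the circadian clock, was called higher in all 3, by 1.46 in cerebral cortex and 1.24 in hippocampus. Over all genes the counts higher and lower were 2725 and 2820 in cerebral cortex, 2339 and 2666 in cerebellum, and 2212 and 2460 in hippocampus.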

How the data were processed

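Total RNA of 72 samples was hybridised to Affymetrix Mouse Genome 430 2.0 arrays. The deposited values are log2 expression values that the authors made with gcRMA (GCRMA in the submitters' processing notes; its version was not given in the sources used here). All deposited value columns matched a sample (0 unmapped). Gene names came from the platform annotation, updated through RefSeq: 34958 of 45101 probe sets had 1 symbol, 932 several and 9211 none.

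limma 3.58.1 (R 4.3.3) was fitted on all probe sets and 24 group means, without a block, with 48 residual and 51.27 total degrees of freedom. Calls needed an adjusted p (Benjamini-Hochberg) of 0.05 or less and, for differences, a moderated t beyond 4 in size. The fit was tested on simulated data. p-values measure the spread between arrays of a group, in which differences between mice and between arrays are not separated. The 3 regions of a mouse entered as separate arrays, and the arrays that stood apart were kept. Tables used Python 3.11.15, pandas 2.3.3 and numpy 2.4.6.

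The members and the gene lists were chosen with earlier results of these data known. Every member probe set is reported, with the brightest as main. Listed relatives are named by the largest absolute t, at most 4 a list. The most alike genes are the 5 with the highest r. Same-numbered Ts1Cje and disomic mice were checked for pairing by the correlation of their deviations from group means. Alternatives were a filter at a mean of 5, quantile normalisation, 1 fit per region, a replicate block, a mouse block, and leaving out replicates and the arrays that stood apart. Protein sequences were not used here.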

Additional observations from a re-analysis of the deposited data

Results flagged for a closer look

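Some dim probe sets had all 3 Ts1Cje arrays above all 3 disomic arrays in one comparison and below them in another. Over all probe sets and the 12 comparisons, 4.90% were fully apart with Ts1Cje above and 4.50% with Ts1Cje below. The difference between such comparisons was not tested, and none of the single differences was called. Erg 1440244_at was higher in Ts1Cje in the P15 cerebral cortex (0.37) and the P1 hippocampus (0.27) and lower in the P1 cerebellum (-0.12). Runx1 1440878_at was higher in Ts1Cje in the P84 cerebellum (0.26) and lower in the P15 cerebellum (-0.14). Runx1 1422864_at was higher in Ts1Cje in the P1 cerebral cortex (0.22) and the P15 cerebral cortex (0.26) and lower in the P1 cerebellum (-0.38) and the P15 hippocampus (-0.13). The comparisons in the P1 cerebellum include a dim disomic array, and those in the P15 cerebellum and P15 hippocampus a disomic array with markers of another region. No flag of this kind fell on Ets2.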

How the results depend on the processing

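Of 156 single genotype tests of member probe sets, 1 was called. The count was 0 with 1 fit per region, 2 without both P15 arrays with markers of another region and 8 without these and the 3 dim arrays. With 1 replicate number left out it was 0 to 4. The shares of all probe sets called under these settings are not given here. Without the 3 arrays high in Xist, an alternative chosen after seeing the data, the counts of genotype, age and region calls were the same. The averages over ages called 1 probe set in the cerebral cortex (2 without the same P15 arrays, 1 with any replicate left out), 2 in the cerebellum (1 with the filter, 1 with 1 fit per region, 1 to 2 with a replicate left out) and 1 in the hippocampus (0 to 1). The 8 age calls became 3 with the filter and 7 to 9 with a replicate left out. The 0 region calls became 1 with quantile normalisation, 1 without the dim arrays, 2 without all 5 arrays and 0 to 2 with a replicate left out. The difference of Ets2 1416268_at averaged over ages stayed called in the cerebral cortex (0.74 to 0.94) and the cerebellum (0.69 to 1.13), and kept its direction in the hippocampus (0.61 to 0.72, and 0.61 to 0.71 with a replicate left out) under all settings.

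Whether same-numbered Ts1Cje and disomic mice are pairs was not settled. Of 36 such pairs, 24 had a correlation of deviations over 0.1 (-0.33 to 0.82, median 0.20). Between regions with the same genotype, age and replicate number, taken here as the same mouse, it was 50 of 72 (median 0.30). The labels do not say that this number follows a mouse across regions. The picture was similar, so this check cannot set pairing aside. The main fit held no block. With the replicate number as a block 1 single genotype call remained and the age calls were 6, those of Erg and Runx1 in the cerebral cortex being lost (adjusted p = 0.115 and 0.0618).

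Values near 0 changed sign. The Erg average in the cerebellum was -0.05 without Ts1Cje replicate 1 and -0.07 without disomic replicate 2 (at most 0.07 with a replicate left out). The Runx1 average in the cerebral cortex was 0.03 without the dim arrays, 0.03 without all 5, 0.02 without Ts1Cje replicate 3 and 0.06 without disomic replicate 3. In the cerebellum it was 0.03, 0.04, 0.01 without Ts1Cje replicate 1 and 0.03 without disomic replicate 3 (at least -0.08 with a replicate left out). In the hippocampus it was -0.00 without the dim arrays, -0.02 without Ts1Cje replicate 2 and -0.01 without disomic replicate 1. The Ets2 step from P30 to P84 was 0.02 with quantile normalisation, 0.05 without the dim arrays, 0.05 without all 5 and 0.03 without Ts1Cje replicate 1 in the cerebral cortex (at least -0.06), and 0.03, 0.09, 0.09, 0.00 without Ts1Cje replicate 3 and 0.08 without disomic replicate 3 in the hippocampus (at least -0.09). The causes were not tested. Region differences cannot be had from 1 fit per region.

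Precision was limited by 3 arrays a group and, for Erg, Runx1 and Sim2, by signal near the floor of the array.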
